A study of Mus musculus with 12 samples.

Results

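Autophagy, mitophagy and lysosome genes were measured in the myocardium of 12 mice on 12 oligonucleotide arrays, 1 mouse per array. Of 43 listed genes, 40 were measured here, out of 19505 genes in the whole table, and the other 3 were not analysed here. A gene was taken as a member when the array's platform annotation gave its symbol to a probe set, and a gene with several probe sets would be read from the one with the highest mean. The measured members were 16 genes of initiation and membrane supply, 11 of conjugation, 4 cargo receptors, 3 genes of mitophagy and 6 of the lysosome.

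Each of the 3 groups held 4 mice. The DM_AngIV group had diabetes from streptozotocin, a toxin of insulin-producing beta cells, injected for 5 days, and later received angiotensin IV, a peptide of the renin-angiotensin system, at 2.88 mg per kg per day from week 8 to week 24. The DM group had the same diabetes and no angiotensin IV. Both diabetic groups kept only mice whose fasting glucose was at least 16.7 mM 2 weeks after the injections. The NC group received vehicle for 5 days. The labels give 6 months for the tissue of all groups, while neither strain nor sex is stated there. The streptozotocin model depends on loss of beta cells, and the diabetic mice were selected by their glucose.

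Macroautophagy encloses cell contents in a double membrane, the autophagosome, which fuses with the lysosome for breakdown. A kinase complex and a lipid kinase complex start the membrane, a ubiquitin-like conjugation system attaches LC3 and GABARAP proteins to it, and receptors tether cargo to these proteins. In heart muscle, whose cells divide little and hold many mitochondria, autophagy and its mitochondrial form, mitophagy, are known for the clearance of damaged organelles and for the response to starvation.

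All levels below are log2 values as deposited, and a log2 fold change is a difference of group means of these levels. Array medians lay between 4.12 and 4.19, and the lowest correlation between any pair of arrays over all genes was 0.977. A level above 4.96, the 95th percentile of 246 control probe sets, is called above background, and 32 of the 40 members were above it on all 12 arrays. The labelled tissue matched its markers, since the mean of 10 heart muscle markers lay between 11.05 and 11.23 on all arrays. Atrial muscle markers differed between mice. Myl7, an atrial myosin light chain, was above background in 0 DM_AngIV mice, in DM replicates 1, 2 and 4 and in NC replicates 1 and 3, and the main counts are given with and without these arrays.

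No member passed the test in any comparison. The test was limma's two-sided moderated test in a model of 12 arrays with 1 mean for each group, with p-values adjusted by the Benjamini-Hochberg method over all 19505 genes and a threshold of 0.05. In DM_AngIV against NC, 0 of 40 members passed, where 1.02% of all genes did, and the smallest limma adjusted p of a member was 0.0637. At an unadjusted limma p below 0.05, 14 of 40 members had a positive log2 fold change and 2 a negative one, where 8.11% and 6.53% of all genes did. Among the 8372 genes whose mean level was above background, fitted on their own, these shares were 15.5% and 9.16%. In that fit 14 of 37 members were positive and 2 negative. Shares of genes above background come from that fit throughout, while the counts for steps and lists come from the fit of all genes. Over the members, 28 of 40 log2 fold changes were positive, where 48.5% of all genes were, and their median was 0.13, against −0.007 for all genes. Leaving out NC replicate 1 gave a median of 0.07, and leaving out NC replicate 3 one of 0.20.

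In DM against NC, 0 of 40 members passed, where 0.0154% of all genes did, while 5 were positive and 0 negative at an unadjusted limma p below 0.05, where 4.69% and 4.26% of all genes were. Among genes above background, the positive and negative shares were 6.9% and 6.01%, and 5 of 37 members were positive and 0 negative in that fit. Of the 40, 26 had a positive value of any size, where 49.8% of all genes had. The count of 5 was 3 without DM replicate 2 and 2 without NC replicate 2, and it was 1 when the arrays with Myl7 above background were left out, where 2.61% of all genes were positive. Between DM_AngIV and DM, 0 of 40 members and 0% of all genes passed, and 2 members were positive and 1 negative at an unadjusted limma p below 0.05, where 3.98% and 3.5% of all genes were. Among genes above background, 7.92% and 3.54% were, and 3 of 37 members were positive and 1 negative in that fit. A positive value of any size was found for 29 members, where 49.8% of all genes had one. The count of 2 was 5 without DM_AngIV replicate 2, 4 without DM replicate 1, 1 without DM_AngIV replicate 3 or 4 or DM replicate 4, and 0 without DM replicate 3. It was 3 when the arrays with Myl7 above background were left out, where 3.44% of all genes were positive. The 3 comparisons share arrays, so their values are given side by side and not as support for one another. In bulk tissue, fewer cells of a type and less RNA per cell cannot be told apart.

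**Figure D1:**
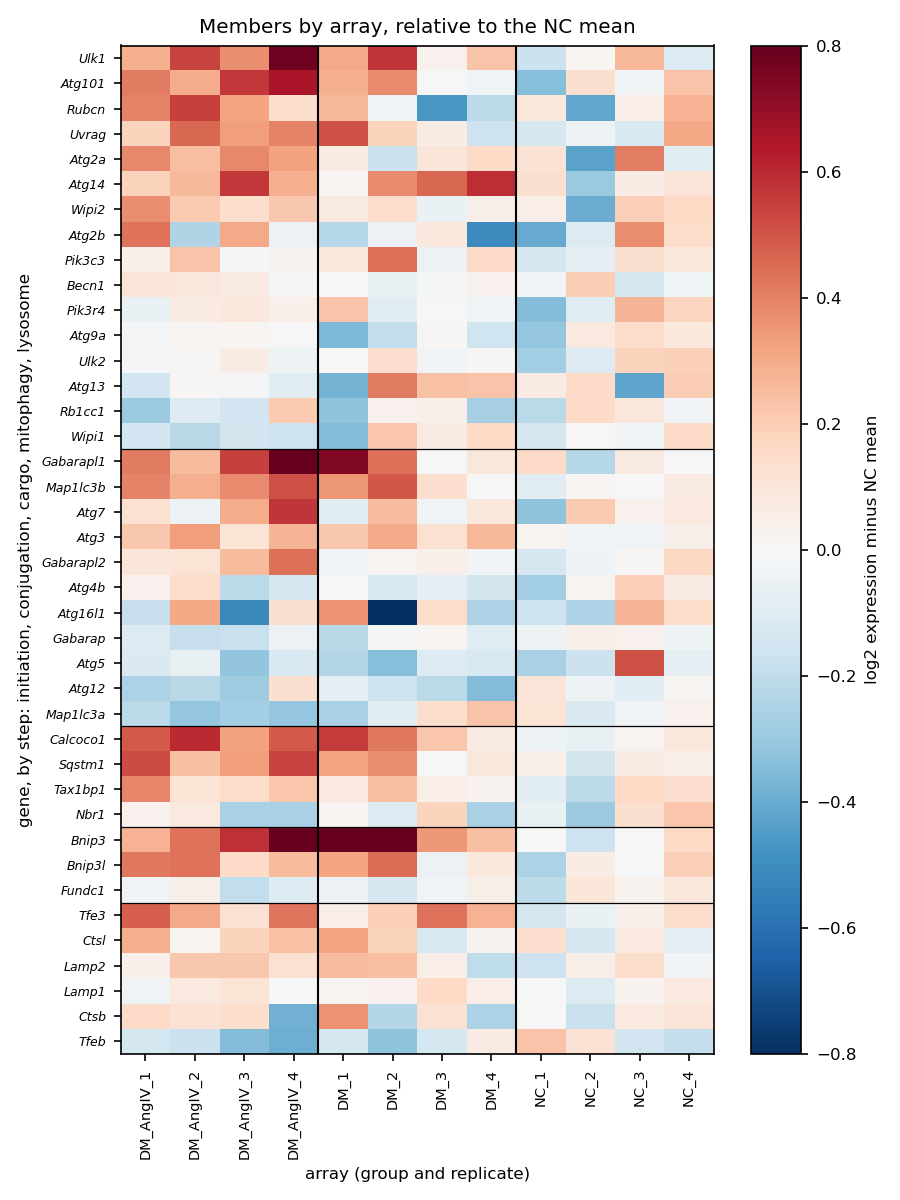
Level of each of the 40 members on each array, as log2 expression minus the mean of the 4 NC arrays, with genes in rows by step and arrays in columns by group, DM_AngIV left, DM middle and NC right. Red is above the NC mean, blue below it, and values past the ends of the scale take its end colours. Ulk1, Calcoco1, Sqstm1 and Bnip3 are red on all 4 DM_AngIV arrays, and Map1lc3a is blue on all 4.

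The 16 genes of initiation supply the kinases and lipids that start the membrane. Against NC, 5 of them in DM_AngIV were positive and 0 negative at an unadjusted limma p below 0.05, with a median log2 fold change of 0.09. Over all genes these shares were 8.11% and 6.53%, and among genes above background 15.5% and 9.16%. Ulk1, the kinase that starts autophagy, had levels of 5.44, 5.70, 5.53 and 5.94 in DM_AngIV, 5.46, 5.73, 5.19 and 5.39 in DM, and 4.99, 5.17, 5.42 and 5.05 in NC. Every DM_AngIV mouse lay above every NC mouse, while DM overlapped both groups. Ulk1 had a log2 fold change in DM_AngIV against NC of 0.49 ± 0.14 (SE; limma adjusted p = 0.114).

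Atg101 belongs to the same kinase complex. Its levels were 5.95, 5.83, 6.09 and 6.18 in DM_AngIV, 5.81, 5.91, 5.53 and 5.50 in DM, and 5.19, 5.66, 5.51 and 5.76 in NC. The lowest DM_AngIV mouse lay above the highest NC mouse, and DM replicate 2 lay inside the DM_AngIV range. Its log2 fold change was 0.48 ± 0.14 in DM_AngIV against NC and 0.33 ± 0.14 in DM_AngIV against DM (SE; limma adjusted p = 0.115 and 0.643). Atg13, another subunit, was above background on 0 DM_AngIV arrays, 1 DM array and 0 NC arrays, with levels of 4.55, 4.71, 4.70 and 4.62 in DM_AngIV, 4.33, 5.12, 4.94 and 4.93 in DM, and 4.77, 4.86, 4.28 and 4.91 in NC. No fold is given for it.

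The lipid kinase complex around Becn1 (Beclin 1) makes the phosphoinositide that recruits later proteins. Becn1 itself had 6.23, 6.22, 6.19 and 6.11 in DM_AngIV, 6.13, 6.07, 6.12 and 6.16 in DM, and 6.10, 6.33, 5.98 and 6.10 in NC, so the 3 groups overlapped. Atg14, which directs this complex to autophagosome formation, had 5.41, 5.49, 5.79 and 5.52 in DM_AngIV, 5.24, 5.61, 5.69 and 5.82 in DM, and 5.36, 4.93, 5.29 and 5.34 in NC. All DM_AngIV mice and 3 of 4 DM mice lay above all NC mice. Its log2 fold change was 0.32 ± 0.14 in DM_AngIV against NC and 0.36 ± 0.14 in DM against NC (SE; limma adjusted p = 0.299 and 0.461), and NC replicate 2 was its lowest array.

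Rubcn encodes Rubicon, an inhibitor of the lipid kinase complex. It had 5.55, 5.70, 5.46 and 5.29 in DM_AngIV, 5.42, 5.13, 4.68 and 4.94 in DM, and 5.23, 4.73, 5.20 and 5.43 in NC. DM replicate 1 lay inside the DM_AngIV range, and DM replicates 3 and 4 and NC replicate 2 were at or below background. This was the largest positive log2 fold change of a member in DM_AngIV against DM, 0.46 ± 0.17 (SE; limma adjusted p = 0.620). Uvrag, a partner of the complex in endosome and autophagosome maturation, had group means of 5.88 in DM_AngIV, 5.68 in DM and 5.54 in NC.

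Wipi1 binds the phosphoinositide that the complex makes. Its levels were 7.10, 7.03, 7.10 and 7.08 in DM_AngIV, 6.90, 7.47, 7.32 and 7.41 in DM, and 7.12, 7.26, 7.23 and 7.40 in NC. The DM_AngIV mice lay within a narrow range below all NC mice and below 3 of 4 DM mice. Its log2 fold change was −0.20 ± 0.12 in DM_AngIV against DM and −0.17 ± 0.12 in DM_AngIV against NC (SE; limma adjusted p = 0.739 and 0.563).

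Atg9a is a lipid scramblase in vesicles that seed the membrane. It had 7.37, 7.39, 7.40 and 7.39 in DM_AngIV, 7.02, 7.19, 7.39 and 7.22 in DM, and 7.07, 7.46, 7.53 and 7.47 in NC. NC replicate 1 stood apart from the other NC mice. For DM against NC its log2 fold change was −0.17 ± 0.12 (SE; limma adjusted p = 0.717). Atg2a, a lipid transfer protein, had means of 5.29 in DM_AngIV, 4.99 in DM and 4.95 in NC, and all DM_AngIV mice lay above all DM mice. It lay near background, and was above it on 4 DM_AngIV, 3 DM and 2 NC arrays. Among the remaining initiation genes, Ulk2, Rb1cc1, Pik3c3, Pik3r4, Wipi2 and Atg2b, no comparison of the 3 groups had an unadjusted limma p below 0.05.

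The conjugation genes attach LC3 and GABARAP proteins to the membrane. Set against NC, DM_AngIV had 4 of 11 that were positive and 1 negative at an unadjusted limma p below 0.05. Of all genes, 8.11% and 6.53% were, and of genes above background 15.5% and 9.16%. The median log2 fold change of the 11 was −0.04. The LC3 pair differed in sign. Map1lc3b had 9.04, 8.93, 9.02 and 9.15 in DM_AngIV, 8.99, 9.14, 8.77 and 8.64 in DM, and 8.55, 8.65, 8.64 and 8.71 in NC. Each DM_AngIV mouse lay above each NC mouse, and DM replicates 1 and 2 lay with the DM_AngIV mice. Its log2 fold change was 0.40 ± 0.11 in DM_AngIV against NC and 0.25 ± 0.11 in DM against NC (SE; limma adjusted p = 0.114 and 0.546).

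Map1lc3a, the other LC3 gene measured, had 9.25, 9.15, 9.19 and 9.16 in DM_AngIV, 9.21, 9.37, 9.60 and 9.69 in DM, and 9.58, 9.35, 9.44 and 9.50 in NC. The DM_AngIV mice lay below all NC mice and overlapped DM only at DM replicate 1. The log2 fold change was −0.28 ± 0.11 in DM_AngIV against NC and −0.28 ± 0.11 in DM_AngIV against DM (SE; limma adjusted p = 0.273 and 0.629).

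Gabarapl1, of the GABARAP family, had 8.28, 8.12, 8.41 and 8.66 in DM_AngIV, 8.61, 8.30, 7.87 and 7.95 in DM, and 8.01, 7.64, 7.93 and 7.87 in NC. The DM_AngIV and NC mice did not overlap, and DM spanned both. Its log2 fold change in DM_AngIV against NC was 0.50 ± 0.16 (SE; limma adjusted p = 0.150). Gabarapl2 had 6.53, 6.54, 6.68 and 6.87 in DM_AngIV, 6.40, 6.45, 6.47 and 6.41 in DM, and 6.30, 6.39, 6.44 and 6.60 in NC. Its DM_AngIV mice lay above all DM mice, and the difference of means was 0.22 ± 0.11 on the log2 scale (SE; limma adjusted p = 0.667). Gabarap, the founding gene of the family, had means of 9.46 in DM_AngIV, 9.51 in DM and 9.59 in NC.

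Atg3 is the enzyme that transfers LC3 to lipid. It had 6.42, 6.54, 6.31 and 6.48 in DM_AngIV, 6.42, 6.51, 6.33 and 6.47 in DM, and 6.22, 6.17, 6.18 and 6.25 in NC. The lowest mouse of both diabetic groups lay above the highest NC mouse. The log2 fold change was 0.23 ± 0.09 in DM_AngIV against NC and 0.23 ± 0.09 in DM against NC (SE; limma adjusted p = 0.258 and 0.484).

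Atg5 and Atg12 form a conjugate that helps to lipidate LC3. Atg5 had 6.07, 6.13, 5.87 and 6.07 in DM_AngIV, 5.95, 5.84, 6.08 and 6.07 in DM, and 5.93, 6.02, 6.70 and 6.11 in NC. Atg12 had 6.32, 6.35, 6.29 and 6.70 in DM_AngIV, 6.49, 6.40, 6.36 and 6.23 in DM, and 6.68, 6.53, 6.48 and 6.59 in NC. NC replicate 3 was the one high array of Atg5. Both genes had a log2 fold change of −0.20 in DM against NC, ± 0.15 for Atg5 and ± 0.11 for Atg12 (SE; limma adjusted p = 0.743 and 0.638), and that of Atg5 was 0.020 without the arrays with atrial signal. Atg4b, Atg7 and Atg16l1 had no unadjusted limma p below 0.05 in the comparisons of the 3 groups.

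The promoters of Atg3 and Map1lc3b are shown as those of a conjugation gene with a match and of one without, and were chosen after their values were seen. TFEB and TFE3, transcription factors of lysosome and autophagy genes, bind DNA around CACGTG, which reads the same on both strands and is also bound by other factors. The 250 bases before the annotated start are printed from RefSeq (build GRCm38.p6), 5′ to 3′ on the gene's strand, with each CACGTG in capitals. They lie at chr16:45158579-45158828 on the plus strand for Atg3 and at chr8:121590188-121590437 on the plus strand for Map1lc3b.
Atg3: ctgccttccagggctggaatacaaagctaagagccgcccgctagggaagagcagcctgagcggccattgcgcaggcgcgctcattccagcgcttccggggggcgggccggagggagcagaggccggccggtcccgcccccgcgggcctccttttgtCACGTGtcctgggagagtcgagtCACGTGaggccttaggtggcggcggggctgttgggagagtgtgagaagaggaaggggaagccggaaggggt
Map1lc3b: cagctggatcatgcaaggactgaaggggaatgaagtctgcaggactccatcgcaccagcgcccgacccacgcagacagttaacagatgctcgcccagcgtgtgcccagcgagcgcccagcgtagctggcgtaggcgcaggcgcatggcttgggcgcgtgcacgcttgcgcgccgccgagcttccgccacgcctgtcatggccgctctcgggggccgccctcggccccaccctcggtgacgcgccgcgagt
Atg3 held 2 matches, whose first bases lie 94 and 71 bases before the start, and Map1lc3b held 0.

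The 4 cargo receptors link ubiquitin-tagged or other cargo to LC3. Between DM_AngIV and NC, 2 of 4 were positive and 0 negative at an unadjusted limma p below 0.05, and the median log2 fold change was 0.31. The shares were 8.11% and 6.53% of all genes, and 15.5% and 9.16% of genes above background. Calcoco1, a receptor for endoplasmic reticulum and Golgi, had the smallest adjusted p of all members in that comparison. Its levels were 7.94, 8.05, 7.78 and 7.94 in DM_AngIV, 8.01, 7.88, 7.67 and 7.52 in DM, and 7.40, 7.39, 7.47 and 7.54 in NC. The lowest DM_AngIV mouse lay above the highest NC mouse, and DM replicates 1 and 2 lay above DM replicates 3 and 4. The log2 fold change was 0.47 ± 0.12 in DM_AngIV against NC and 0.32 ± 0.12 in DM against NC (SE; limma adjusted p = 0.0637 and 0.424). The first of these fell below the threshold when DM replicate 1 or DM replicate 4 was left out (limma adjusted p = 0.0404 and 0.0467).

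Sqstm1 encodes p62, a receptor for ubiquitin-tagged cargo. It had 9.76, 9.48, 9.57 and 9.78 in DM_AngIV, 9.56, 9.61, 9.24 and 9.33 in DM, and 9.28, 9.09, 9.30 and 9.29 in NC. All DM_AngIV mice lay above all NC mice. For DM_AngIV against NC the log2 fold change was 0.41 ± 0.11 (SE; limma adjusted p = 0.102). Nbr1 and Tax1bp1, receptors of related build, had means of 5.97 and 6.93 in DM_AngIV, 6.03 and 6.81 in DM, and 6.07 and 6.71 in NC.

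Of the 3 mitophagy genes, which encode receptors on the outer mitochondrial membrane, 2 were positive at an unadjusted limma p below 0.05 in DM_AngIV against NC and 1 in DM against NC. In these comparisons 8.11% and 4.69% of all genes were positive at that threshold, and 15.5% and 6.9% of genes above background. Bnip3, also known as a hypoxia-induced gene, had 8.98, 9.14, 9.29 and 9.66 in DM_AngIV, 9.53, 9.50, 9.05 and 8.94 in DM, and 8.70, 8.54, 8.71 and 8.86 in NC. The lowest mouse of each diabetic group lay above the highest NC mouse. The log2 fold change was 0.56 ± 0.16 in DM_AngIV against NC and 0.55 ± 0.16 in DM against NC (SE; limma adjusted p = 0.110 and 0.308), the largest of any member in both comparisons. In DM_AngIV against DM the interval of its difference ran from −0.33 to 0.35 at 95% confidence.

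Bnip3l (NIX), a close relative, had 7.33, 7.34, 7.06 and 7.16 in DM_AngIV, 7.22, 7.36, 6.86 and 6.99 in DM, and 6.66, 6.97, 6.91 and 7.10 in NC. Its groups overlapped, and its log2 fold change in DM_AngIV against NC was 0.31 ± 0.13 (SE; limma adjusted p = 0.280). Fundc1, the other receptor, had means of 7.70 in DM_AngIV, 7.72 in DM and 7.77 in NC.

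The promoters of Bnip3 and Calcoco1 are shown because these genes had the 2 smallest adjusted p-values of the pooled comparison below. They are printed as above, from RefSeq (GRCm38.p6), at chr7:138909507-138909756 on the minus strand for Bnip3 and at chr15:102722179-102722428 on the minus strand for Calcoco1.
Bnip3: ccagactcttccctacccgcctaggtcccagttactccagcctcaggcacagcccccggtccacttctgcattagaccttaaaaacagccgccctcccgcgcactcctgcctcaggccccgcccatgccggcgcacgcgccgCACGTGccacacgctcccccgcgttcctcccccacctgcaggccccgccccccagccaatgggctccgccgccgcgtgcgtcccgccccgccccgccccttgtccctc
Calcoco1: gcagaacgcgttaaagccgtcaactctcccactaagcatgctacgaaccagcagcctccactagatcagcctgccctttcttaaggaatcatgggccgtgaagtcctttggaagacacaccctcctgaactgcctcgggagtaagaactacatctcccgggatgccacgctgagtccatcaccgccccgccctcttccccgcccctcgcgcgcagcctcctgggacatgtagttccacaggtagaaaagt
Bnip3 held 1 CACGTG, whose first base lies 108 bases before the start, and Calcoco1 held 0. Over the members, 7 of the 32 with a promoter entry held CACGTG, 21.9%, and they were Atg3, Atg5, Atg7, Bnip3, Ctsl, Lamp1 and Rubcn. Of all 27025 genes with a promoter entry, on the array or not and at any level, 6.86% held it. GTAAACA, a site of forkhead factors such as FoxO proteins searched on both strands, was in 0 of 32 members, where 3.54% of the 27025 genes held it. A match describes the letters of this window only.

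**Figure D2:**
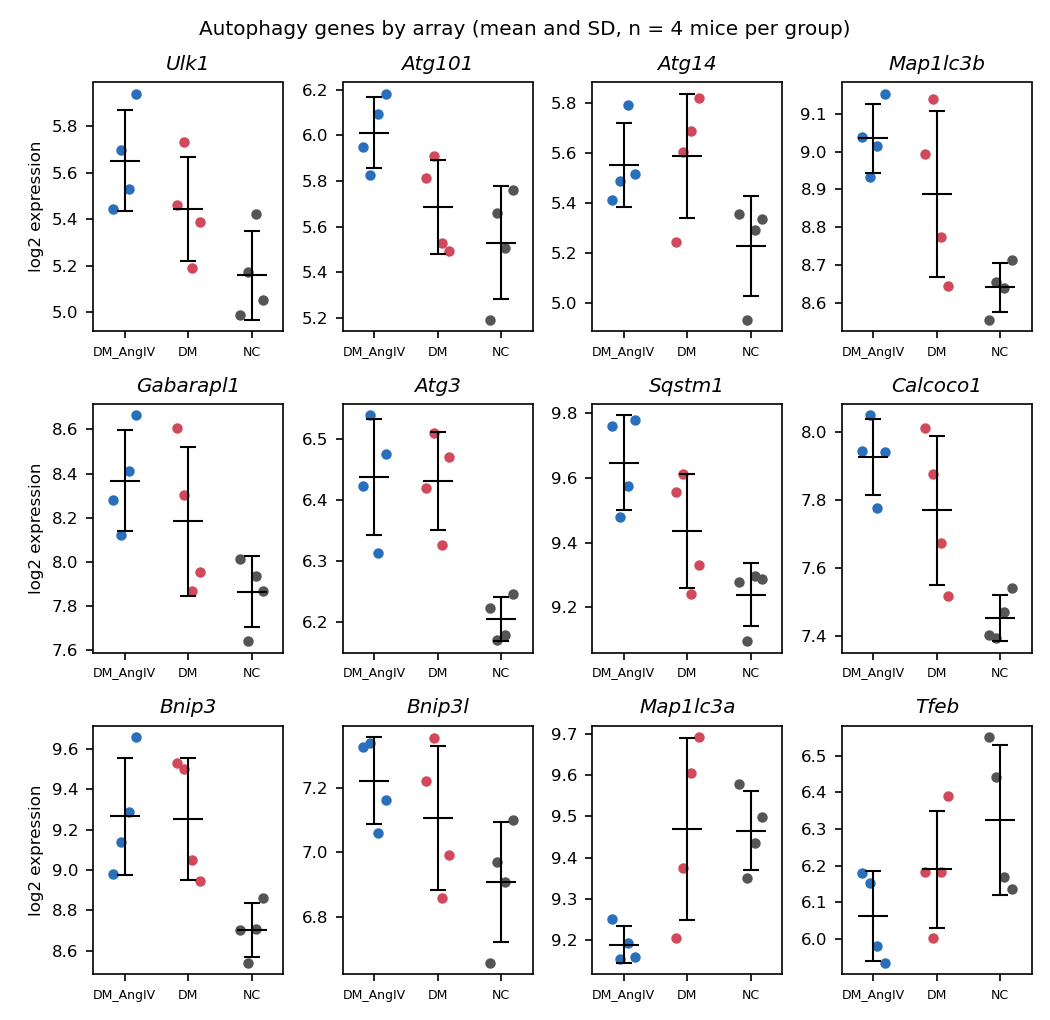
Log2 expression of 12 members on each array, with 1 point per mouse and the mean ± SD of 4 mice per group, DM_AngIV left, DM middle and NC right. The y axes differ between genes and do not start at 0. For Ulk1, Atg101, Map1lc3b, Gabarapl1, Sqstm1 and Calcoco1 the DM_AngIV points lie above all NC points.

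The lysosome genes comprise transcription factors, membrane proteins and proteases. Between DM_AngIV and NC, 1 of 6 was positive and 1 negative at an unadjusted limma p below 0.05, and in DM against NC none of the 6 was. In the first comparison 8.11% and 6.53% of all genes were, and 15.5% and 9.16% of genes above background. In the second, 4.69% and 4.26% of all genes were. The gene positive in the first comparison, Tfe3, had a mean level of 4.93 and is not among the genes above background. Tfeb, which turns on lysosome genes, had 6.18, 6.15, 5.98 and 5.93 in DM_AngIV, 6.18, 6.00, 6.18 and 6.39 in DM, and 6.55, 6.44, 6.17 and 6.14 in NC, with overlap between all groups. Its log2 fold change in DM_AngIV against NC was −0.26 ± 0.12 (SE; limma adjusted p = 0.339). Tfe3, its relative, was above background on 3 DM_AngIV arrays, 2 DM arrays and 0 NC arrays. With NC held at the background level, the mean of Tfe3 was 1.08-fold higher in DM_AngIV, a value without a confidence limit. The difference of its levels as deposited did not pass (limma adjusted p = 0.190).

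The lysosomal membrane protein gene Lamp2 had 9.34, 9.52, 9.52 and 9.43 in DM_AngIV, 9.55, 9.55, 9.36 and 9.10 in DM, and 9.14, 9.35, 9.45 and 9.28 in NC. Ctsl, a lysosomal protease, had 7.96, 7.69, 7.85 and 7.91 in DM_AngIV, 7.99, 7.85, 7.55 and 7.70 in DM, and 7.80, 7.54, 7.75 and 7.59 in NC. The groups overlapped for both genes. Lamp1 had means of 9.30 in DM_AngIV, 9.33 in DM and 9.26 in NC, and the protease Ctsb had 9.18 in each group.

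**Figure D3:**
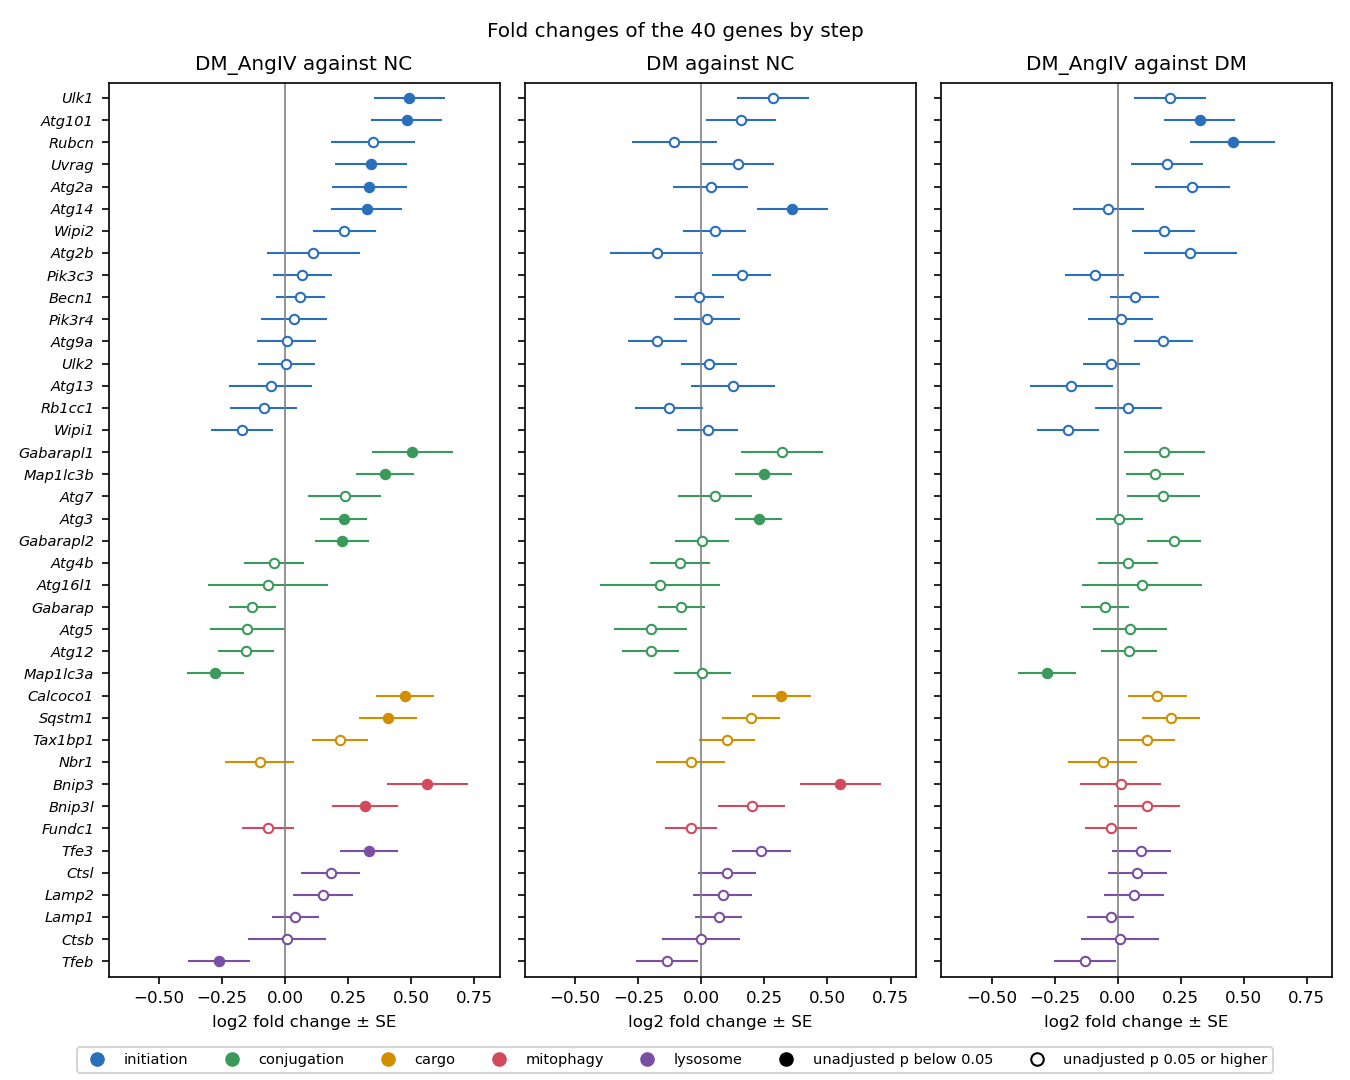
Log2 fold change of the 40 members in 3 comparisons, with genes in rows by step, points for the limma estimate and bars for ± 1 SE. Filled points have an unadjusted p below 0.05 and open points do not. In DM_AngIV against NC, 14 filled points lie to the right of 0 and 2 to the left, and no point passed the adjusted threshold.

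The mean of both diabetic groups was also set against NC. Either group alone can move this mean, so it does not show what both share. Again 0 of 40 members passed, where 0.631% of all genes did, while 11 were positive and 0 negative at an unadjusted limma p below 0.05, where 6.97% and 6.11% of all genes were. Among genes above background, the positive and negative shares were 12.5% and 8.85%, and 10 of 37 members were positive and 0 negative in that fit. Positive values of any size numbered 27 of 40, where 49.4% of all genes had one. The smallest adjusted p-values were those of Bnip3 and Calcoco1, with log2 fold changes of 0.56 ± 0.14 and 0.40 ± 0.10 (SE; limma adjusted p = 0.0913 and 0.0922). Only Bnip3 and Atg3 had all 8 diabetic mice above all NC mice, 2 of 40 members, where 1.06% of all genes did, and 0 members had all 8 below, where 0.887% did.

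The DM_AngIV and NC groups did not overlap for 9 members with DM_AngIV above NC and 3 with DM_AngIV below it, where 5.63% and 4.2% of all genes did not overlap in those directions. The 3 were Map1lc3a, Wipi1 and Gabarap. For DM against NC, the groups of Bnip3 and Atg3 did not overlap, with DM above NC, 2 of 40 members where 2.45% of all genes did so, and 0 did with DM below NC, where 2.09% of all genes did. For DM_AngIV against DM, those of Atg2a and Gabarapl2 did not overlap, with DM_AngIV above DM, 2 of 40 where 2.81% of all genes did so, and 0 did with DM_AngIV below DM, where 2.2% of all genes did.

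Markers of other cell types were read beside these counts. Macrophages are rich in lysosomes, and the mean of 13 of 14 listed macrophage and monocyte markers ran from 5.41 to 5.78 in DM_AngIV, from 5.33 to 6.11 in DM and from 5.33 to 5.46 in NC. In DM_AngIV against NC, 12 of the 13 had a positive log2 fold change, while Ccr2 and Cx3cr1 were below background on every array. With that mean as a covariate, 11 members were positive at an unadjusted limma p below 0.05 in DM_AngIV against NC, where 5.06% of all genes were. The mean of 7 atrial markers ran from 5.27 to 5.56 in DM_AngIV, from 4.92 to 7.60 in DM and from 5.27 to 7.90 in NC. As a covariate it left 13 members positive, where 8.15% of all genes were. Leaving out the arrays with Myl7 above background keeps 1 DM and 2 NC mice, and the count was then 8, where 7.03% of all genes were. In the pooled comparison the count of 11 was 6 with the macrophage covariate, where 4.14% of all genes were positive, and 5 when the arrays with Myl7 above background were left out, where 4.36% were. Among the other marker lists, 6 of 7 fibroblast markers were negative in DM_AngIV against NC and 1 passed. It was Col3a1, a collagen, with 6.63, 5.88, 5.73 and 5.83 in DM_AngIV, 6.45, 6.62, 6.91 and 6.95 in DM, and 7.51, 6.72, 7.18 and 7.33 in NC. Col3a1 fell by 1.17 ± 0.20 on the log2 scale in DM_AngIV against NC (SE; limma adjusted p = 0.0128), and this call held without any 1 array but was lost with the macrophage covariate or without the arrays with Myl7 above background (limma adjusted p up to 0.175). Of 7 endothelial markers, 6 were positive and 0 passed. The groups of Flt1 and Pecam1 did not overlap, with means of 7.84 and 7.72 in DM_AngIV and 7.24 and 7.30 in NC. Of all genes, 5.63% did not overlap in that direction. Kdr was the negative marker, with a log2 fold change of −0.14, and Cdh5 and Tek had 0.02 each. In the pooled comparison Col3a1 fell and Fabp4, from the adipocyte list, rose (limma adjusted p = 0.0493 and 0.0349), and each was lost in over 10 alternatives, among them without DM_AngIV replicate 2, 3 or 4, DM replicate 1 or 2, or NC replicate 1, 3 or 4, and also without DM replicate 3 for Col3a1 and NC replicate 2 for Fabp4 (limma adjusted p up to 0.634 and 0.583). Of the 8 measured adipocyte markers, 2 were positive and 6 negative in the pooled comparison, and Adipoq and Plin1 were below background on every array. The part of these cell types in the counts was not tested.

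Genes around the members were read from 8 further lists of the pathway. Of their genes, 0 passed in DM against NC or in DM_AngIV against DM. In DM_AngIV against NC, 7 passed, and all 7 were higher in DM_AngIV, where 1.02% of all genes passed in either direction. They were 3 of 31 measured genes of mTORC1 and AMPK control, 1 of 14 transcription factors, 1 of 16 fusion and tethering genes, 1 of 16 further early autophagy genes and 1 of 12 further selective receptors. Of 35 lysosomal hydrolase and membrane genes, 16 subunits of the vacuolar proton pump and 18 further mitophagy genes, 0 passed. At an unadjusted limma p below 0.05, 10 of the 35 lysosomal genes were positive and 0 negative, where 8.11% and 6.53% of all genes and 15.5% and 9.16% of genes above background were. Their mean ran from 6.23 to 6.44 in DM_AngIV, from 6.14 to 6.49 in DM and from 6.09 to 6.29 in NC.

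The mTORC1 kinase restrains autophagy when nutrients are plentiful. Sesn1 encodes a sestrin, an inhibitor of mTORC1 in amino acid and stress signalling, and had 9.27, 9.37, 9.47 and 9.83 in DM_AngIV, 9.28, 9.20, 8.56 and 8.49 in DM, and 8.48, 8.22, 8.25 and 8.40 in NC. Every diabetic mouse lay above every NC mouse, and DM replicates 1 and 2 stood near the DM_AngIV mice. Sesn1 rose by 1.15 ± 0.18 on the log2 scale in DM_AngIV against NC and by 0.85 ± 0.15 in the diabetic groups pooled (SE; limma adjusted p = 0.0083 and 0.0239). The first call held without any 1 array, while the pooled one was lost without any 1 of the 4 NC arrays (limma adjusted p up to 0.0796). The pooled call was also lost with the replicate block, with the macrophage covariate and without the arrays with Myl7 above background (limma adjusted p up to 0.412).

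Rragc, a Rag GTPase that brings mTORC1 to the lysosome, had 7.56, 7.63, 7.52 and 7.50 in DM_AngIV, 7.34, 7.54, 7.15 and 7.31 in DM, and 7.11, 7.02, 7.12 and 7.07 in NC. Eif4ebp1, a translation repressor that mTORC1 phosphorylates, had 7.75, 7.91, 8.14 and 8.49 in DM_AngIV, 7.72, 8.24, 7.59 and 7.42 in DM, and 7.32, 7.30, 7.25 and 7.27 in NC. For both genes the diabetic mice lay above all NC mice. The rise in DM_AngIV against NC was 0.47 ± 0.10 for Rragc and 0.79 ± 0.17 for Eif4ebp1 on the log2 scale (SE; limma adjusted p = 0.0358 and 0.0396).

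Foxo3, a forkhead factor of autophagy genes in muscle, had 5.98, 6.34, 6.36 and 6.29 in DM_AngIV, 5.96, 5.95, 5.89 and 6.01 in DM, and 5.74, 5.77, 5.54 and 5.73 in NC. It rose by 0.55 ± 0.11 on the log2 scale in DM_AngIV against NC (SE; limma adjusted p = 0.0236). Foxo1, its relative, had 5.72, 5.25, 5.73 and 5.72 in DM_AngIV, 6.00, 5.76, 5.49 and 5.64 in DM, and 5.74, 5.51, 5.41 and 5.66 in NC. The 3 groups of Foxo1 overlapped, and its log2 fold change in DM_AngIV against NC was 0.02 ± 0.14 (SE; limma adjusted p = 0.965).

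Bcl2l1 encodes Bcl-xL, a survival protein that also binds Beclin 1. It had 6.50, 7.27, 6.97 and 7.21 in DM_AngIV, 7.22, 6.28, 6.04 and 5.97 in DM, and 6.02, 5.24, 5.83 and 5.79 in NC. DM replicate 1 stood with the DM_AngIV mice and the other 3 DM mice below them. The rise in DM_AngIV against NC was 1.27 ± 0.25 on the log2 scale (SE; limma adjusted p = 0.0245).

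Retreg1, a receptor for endoplasmic reticulum, had 8.93, 9.23, 9.48 and 10.03 in DM_AngIV, 9.19, 9.39, 8.76 and 8.82 in DM, and 8.40, 8.29, 8.49 and 8.68 in NC. Vps16, a tether of lysosome fusion, had 5.83, 5.72, 5.75 and 5.76 in DM_AngIV, 5.65, 5.46, 5.28 and 5.36 in DM, and 5.07, 5.36, 5.27 and 5.22 in NC. The DM_AngIV mice lay above all NC mice for both. Retreg1 rose by 0.95 ± 0.20 and Vps16 by 0.53 ± 0.11 on the log2 scale in DM_AngIV against NC (SE; limma adjusted p = 0.0331 and 0.0240).

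**Figure D4:**
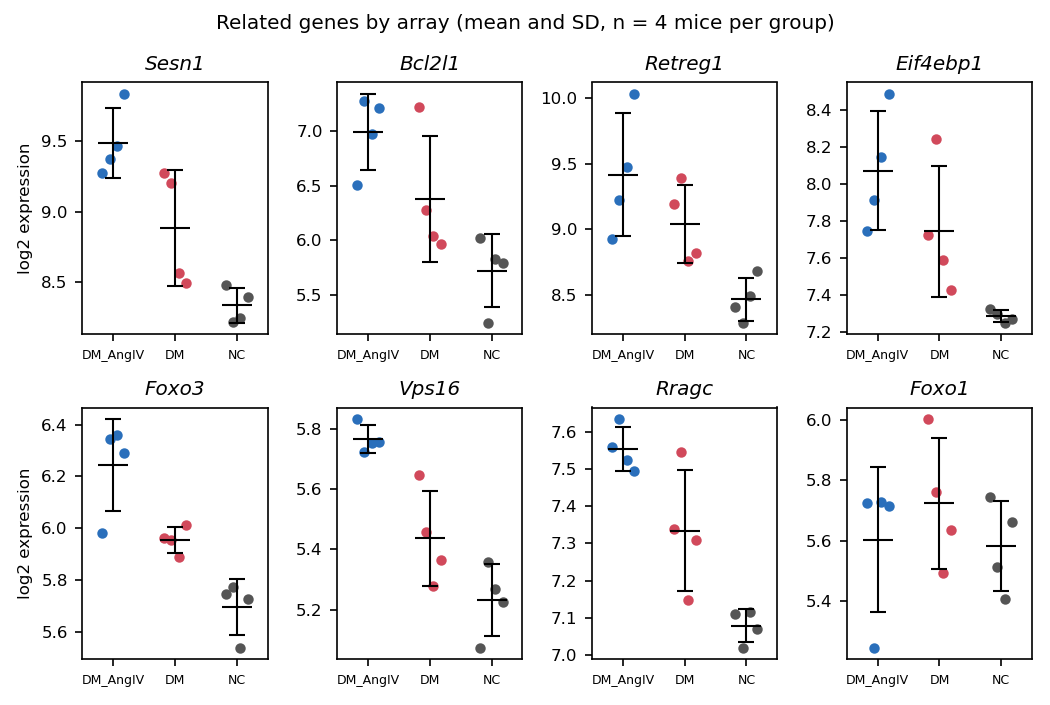
Log2 expression of the 7 genes of the further lists that passed in DM_AngIV against NC, and of Foxo1, on each array, with 1 point per mouse and the mean ± SD of 4 mice per group, DM_AngIV left, DM middle and NC right. The y axes differ between genes and do not start at 0. For the 7 genes the DM_AngIV points lie above all NC points, and for Foxo1 the groups overlap.

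Of these 7 calls, that of Sesn1 held with each single array left out. The calls of Retreg1 and Foxo3 were lost without DM_AngIV replicate 2, 3 or 4 or any 1 NC replicate, that of Eif4ebp1 without the same arrays or DM replicate 3, and that of Rragc without any 1 DM_AngIV or NC replicate. The call of Bcl2l1 was lost without DM_AngIV replicate 2, 3 or 4 or NC replicate 2 or 4, and that of Vps16 without any 1 DM_AngIV replicate or NC replicate 1 or 4. Over all 26 alternatives, calls were lost in 11 each for Retreg1, Eif4ebp1 and Rragc. They were lost in 10 for Foxo3, 9 for Vps16, 8 for Bcl2l1 and 1 for Sesn1. With the macrophage marker mean as a covariate none of the 7 passed, with Sesn1 at a limma adjusted p of 0.0910. When the arrays with Myl7 above background were left out, Sesn1 and Bcl2l1 still passed and the other 5 did not, with a limma adjusted p of up to 0.208 for Foxo3.

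Some of the 7 genes had the smallest p-values of their own lists in the other comparisons, without passing there. Sesn1 had a log2 fold change of 0.60 in DM_AngIV against DM and 0.55 in DM against NC (limma adjusted p = 0.513 and 0.351), and Retreg1 had 0.38 and 0.58 in these comparisons (limma adjusted p = 0.700 and 0.396). Foxo3 had 0.29 in DM_AngIV against DM and 0.26 in DM against NC (limma adjusted p = 0.620 and 0.488). Vps16 had 0.33 in DM_AngIV against DM and 0.21 in DM against NC (limma adjusted p = 0.600 and 0.608). Rragc had 0.22 in DM_AngIV against DM (limma adjusted p = 0.662). Bcl2l1 had the largest log2 fold change of its list in DM against NC, 0.66, and did not pass. The further genes with the smallest p in each list did not pass. For DM against NC, Wdr45 had a log2 fold change of 0.20, Sec62 0.24, Bcl2l13 0.29, Scarb2 0.43, Grn 0.57, Atp6v1b2 −0.32, Atp6v0a1 −0.21, Sesn3 −0.32 and Ppargc1a 0.42, all with limma adjusted p of 0.308 or more. Nipsnap1, a mitophagy signal, was below background in all groups and is given no fold, although it passed in the pooled comparison (limma adjusted p = 0.0443). For DM_AngIV against DM, Tbk1 had 0.34, Trp53inp2 −0.39, Ykt6 0.26, Opa1 0.23, Fundc2 0.20, Lipa 0.25 and Atp6v1b2 0.23, with limma adjusted p of 0.596 or more. Epg5 and Stbd1 lay near background, with means of 5.08 and 4.70 in DM_AngIV, 5.12 and 5.00 in DM, and 4.80 and 5.02 in NC. Arsa, Atp6v0e2 and Tfec had group means below background in all groups and are given no fold.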

How the data were processed

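RNA of 12 mouse hearts, labelled from 6 µg per the labels, was read on 1-colour arrays. The log2 values are those the authors deposited, made by RMA per the submitters' processing notes, whose version is not given in the sources used here; a new scaling of these values was the only check of that step. Of 29129 probe sets, 19572 had a gene symbol in the platform annotation, and the highest-mean probe set per symbol left 19505 genes. limma 3.58.1 in R 4.3.3 fitted 1 mean per group over all 12 arrays, and 4 contrasts were tested, two-sided, with Benjamini-Hochberg adjustment over all genes. Genes at or below the 95th percentile of 246 control probe sets on all arrays of a group are not above background there. For such a gene a fold, where given, is the other group's mean over the higher of its own level and that percentile. It bounds the fold of these samples from below and carries no confidence limit.

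The members, lists and tests were chosen with earlier results of these data known. Members described on every array had the 3 largest positive or negative moderated t in a contrast or were named whatever their values. From each further list, called genes, the 2 smallest p-values of DM against NC and of DM_AngIV against DM, Foxo1 and Foxo3 were named. Alternatives covered the threshold, filters on dim genes, arrays in the fit, the replicate number, probe sets, scaling, array weights, the variance prior, marker covariates, arrays with atrial signal and each array left out. The test was run on simulated data. There is no read depth on arrays, and the precision depends on how many there are. The labels name 4 separate mice per group. Promoters came from RefSeq GRCm38.p6, and figures were drawn with matplotlib 3.10.9.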

Additional observations from a re-analysis of the deposited data

Results flagged for a closer look

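In 5 of 102 sets of 4 arrays tested (34 genes whose fold changes were followed, in 3 groups), 1 mouse stood apart from the other 3 of its group, with a gap that took up most of the group's range. Chance alone flags about 1 in 20 such sets. Atg12 in DM_AngIV had a level of 6.70 in replicate 4, where the others lay between 6.29 and 6.35. Atg9a in NC had 7.07 in replicate 1, where the others lay between 7.46 and 7.53. Atg14 in NC had 4.93 in replicate 2, where the others lay between 5.29 and 5.36. Sqstm1 in NC had 9.09 in replicate 2, where the others lay between 9.28 and 9.30. Col3a1, a fibroblast marker, had 6.63 in replicate 1 of DM_AngIV, where the others lay between 5.73 and 5.88. These are log2 levels, and a reason for the gaps was not tested.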

How the results depend on the processing

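Results were recomputed under 26 alternatives, 12 of which left out 1 array. In DM against NC and DM_AngIV against DM, 0 members passed in all 26. In DM_AngIV against NC the count of members passing was 0 in the main analysis, 1 at a threshold of 0.10 and 1 with only the arrays of the groups compared (Calcoco1, limma adjusted p = 0.0468). In these 2 alternatives 509 and 245 of 19505 genes passed. The count was 3 without genes below the median of all genes, where 492 of 9753 genes passed. It was 6 of 37 without genes below the background percentile, where 569 of 8372 genes passed. With a trended, robust variance prior it was 3, where 514 of 19505 genes passed. The cause of these changes was not tested. The 6 were Ulk1, Atg101, Map1lc3b, Sqstm1, Calcoco1 and Bnip3, and the 3 were Map1lc3b, Sqstm1 and Calcoco1 in both cases. In the pooled comparison the count was 0 in the main analysis, 2 at 0.10, 2 under either filter (Calcoco1 and Bnip3) and 3 with the trended prior, which added Map1lc3b. Over all genes, 320 of 19505 passed at 0.10 and 362 of 19505 with the trended prior. Under the median and background filters 328 of 9753 and 384 of 8372 passed. With 1 array left out the count of members ranged from 0 to 1 in DM_AngIV against NC and from 0 to 2 in the pooled comparison. The 2 came without DM replicate 4, where 231 of 19505 genes passed.

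With the replicate number as a block, 0 members passed in all 4 comparisons. Over all genes the block gave 115 calls in DM_AngIV against NC, against 198 without it, and 40 in the pooled comparison, against 123. Correlations of same-numbered arrays, with group means removed, ran from −0.10 to 0.17. No values of differently numbered arrays are given beside them. Whether same-numbered mice shared more than a number cannot be told. Under the block the calls of Bcl2l1, Vps16, Retreg1, Rragc, Eif4ebp1 and Foxo3 were lost, as was that of Sesn1 in the pooled comparison, while that of Sesn1 in DM_AngIV against NC was kept. Over all genes, calls in DM_AngIV against NC were 10 with the macrophage covariate, 50 without the arrays with atrial signal, 569 under the background filter, 492 under the median filter, 509 at 0.10, 514 with the trended prior and 81 to 302 with 1 array left out. In the pooled comparison they were 2, 1, 384, 328, 320, 362 and 16 to 231 under the same settings, and 189 and 71 with the atrial covariate and with array weights. In DM against NC the 3 calls of the main analysis became 0 to 30.

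Of the fold changes followed, 1 reversed. Atg5 in DM against NC was 0.020 without the arrays with atrial signal, a setting with 1 DM mouse that is assumed to vary like the other groups. The alternative with only the arrays compared was not run for the pooled comparison, which uses all arrays. The median log2 fold change of the members stayed positive in DM against NC, between 0.01 and 0.08, and in DM_AngIV against DM, between 0.03 and 0.11. In DM_AngIV against NC it was 0.13 and ranged from 0.07 without NC replicate 1 to 0.20 without NC replicate 3. In the pooled comparison it was 0.11 and ranged from 0.06 without NC replicate 1 or 2 to 0.13. Signal near background limits what can be read of Atg13, Tfe3, Atg16l1, Atg2a, Atg2b, Rubcn and Pik3c3, and 4 mice per group limit the rest.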

Other observations

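The further lists differed in how their genes were spread in DM_AngIV against NC. All 16 fusion and tethering genes, which join autophagosome and lysosome, had a positive log2 fold change, with a median of 0.24, where 48.5% of all genes were positive. Of these, 8 had an unadjusted limma p below 0.05, where 8.11% of all genes and 15.5% of genes above background were positive at that threshold. The 16 proton pump genes, which acidify the lysosome, had 8 positive and 8 negative values, with a median of −0.01. The 18 further mitophagy genes had 11 positive and 7 negative values, with a median of 0.07. These counts describe the lists and were not tested.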
